A study of Mus musculus with 65 samples.

Results

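Aldh1l1, Slc1a2, Apoe and Cst3 are 4 of the 10407 genes in the deposited tables, and all 4 were found there by their symbols. They are enzymes, transporters and secreted proteins that are abundant in astrocytes. They are described here in 65 single cells of CD1 mouse embryos, with 1 Patch-seq library per cell. Patch-seq draws the content of a cell into a pipette before its RNA is sequenced. The first group is 20 wild-type cells of embryonic day 12 (E12) marked with FlashTag, a dye placed in the ventricle that labels cells dividing at its surface. The second is 26 wild-type FlashTag cells of embryonic day 15 (E15), and the third is 19 E15 progenitors grafted into the brain of an E12 host, called transplanted cells below. All are described by the submitters as neuronal progenitors. The series asks whether late progenitors take on features of a younger brain. The labels name no animal, litter, donor or host, and for that reason a group is treated as a single sample, its cells are not replicates, and no comparison has a p-value.

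Radial glia line the ventricle of the embryonic cortex, produce neurons first and turn to making glia later. Astrocytes that arise from them take up glutamate, handle folate and lipids, and secrete proteins into the tissue. Some astrocyte genes are already transcribed in radial glia, so they are read as signs of progenitor maturation. Apoe and Cst3 are also strongly transcribed in microglia, the macrophages of the brain, which enter it in the embryo and are not made by radial glia.

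Expression is given as CPM, reads of a gene per 1000000 reads of the genes in the tables. A group's CPM comes from its reads added up, so deep cells weigh more, and the median over cells is given beside it. Bounds in parentheses are exact 95% limits, Poisson for reads, binomial for shares of cells and conditional binomial for ratios. These limits take reads, or cells, as independent and leave out variation between animals. Amplified copies of a molecule cannot be recognised in libraries that carry no molecular identifier. The limits on reads and ratios can therefore be too narrow even for the counting error of molecules. Log2 ratios are of CPM with 1 CPM added. The kit reads the 3′ end of a transcript, and no level is compared here between genes.

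In GENCODE vM21 on GRCm38, Cst3 lies on chromosome 2 at 148871722 to 148875692 on the minus strand, in a gene of 3971 bases. Apoe is a gene of 3080 bases on the minus strand of chromosome 7, at 19696109 to 19699188, and its neighbour Apoc1 begins 3448 bases beyond its end. Slc1a2 spans 132126 bases of the plus strand of chromosome 2, from 102658659 to 102790784, and the antisense gene Gm13872 lies within it. Aldh1l1 spans 113777 bases of the plus strand of chromosome 6, from 90486427 to 90600203, the lincRNA gene Gm45901 covers 33054 of its bases on the same strand, and the antisense gene Gm15756 overlaps 3252 bases near its end. The gene Gm44236 also overlaps 513 bases of Aldh1l1 on the same strand. None of these overlapping genes was analysed here, and whether the counting used the strand is not given in the sources used here. Slc1a2 and Aldh1l1 reads therefore cannot be told apart from reads of these genes where they overlap.

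Depth differed between the groups, with medians of 148824 reads per cell at E12 (10928 to 1635767), 998630 at E15 (11449 to 4560871) and 166134 in transplanted cells (22358 to 3622411). Libraries that stand apart were of 2 kinds. Reads of more than 8000 genes were found in 16 libraries, 11 of E15 and 5 of transplanted cells. More than 1000 CPM summed over 15 microglia and macrophage genes was found in 18 libraries, 13 of E15 and 5 of transplanted cells, and 12 libraries met both limits. The 22 libraries that met either leave 20 E12, 12 E15 and 11 transplanted cells, called the remaining cells below. Both limits were set with the data known. The labelled cell type was looked at with 13 apical progenitor genes such as Pax6, Sox2 and Hes5. All were read in every group, with a median sum of 7952 CPM in E12 cells, 2934 in E15 cells and 3844 in transplanted cells. The 9 neuronal genes were also all read in every group, with median sums of 738, 3225 and 2293 CPM. Being read in a group therefore does not check the label of its cells.

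**Figure D1:**
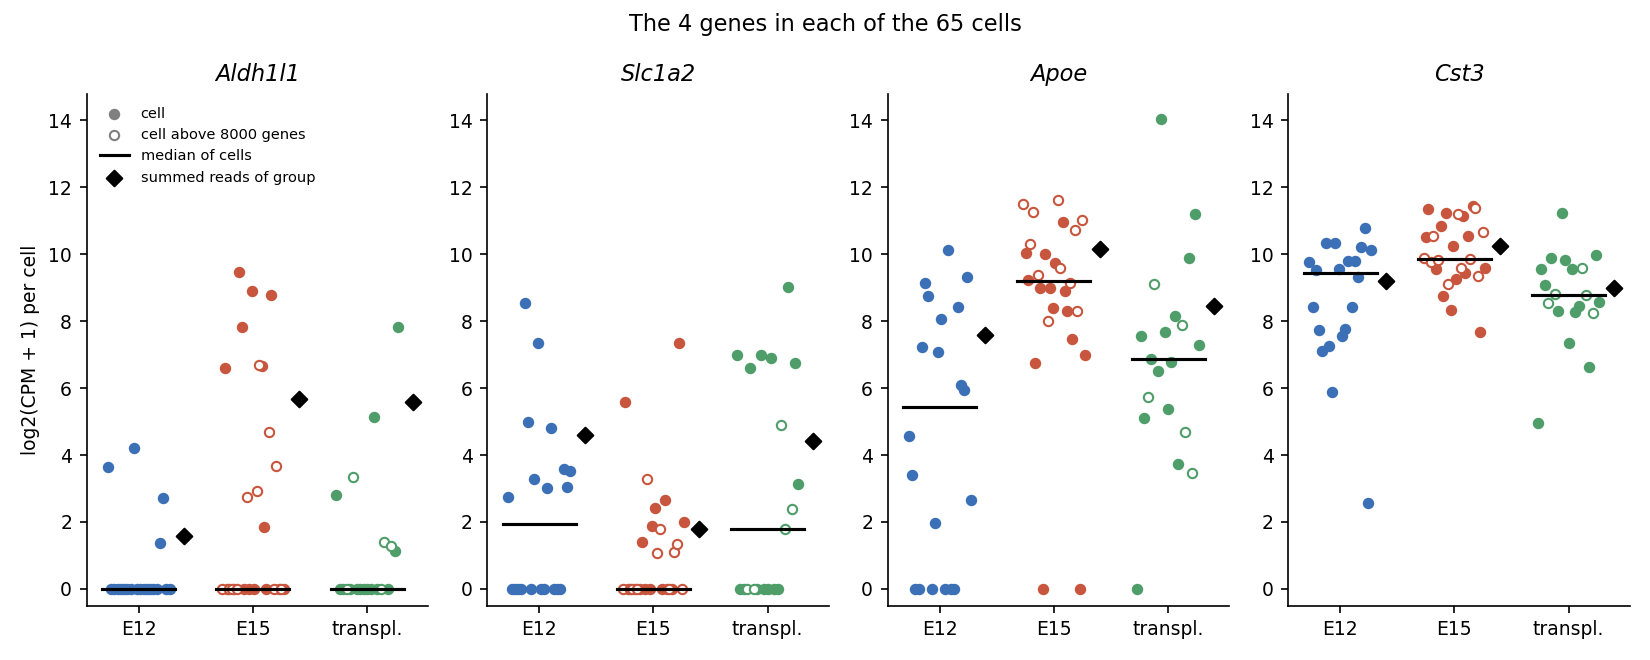
Log2(CPM + 1) of each gene in each of the 65 cells, by group; open circles are cells with reads of more than 8000 genes, black lines are medians of cells and diamonds are the summed reads of a group. Cst3 was read in every cell, while Aldh1l1 had no read in 16 of 20 E12, 14 of 26 E15 and 12 of 19 transplanted cells.

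Between E15 and E12 cells, 3 of the 4 genes (Aldh1l1, Apoe and Cst3) were at least 2-fold higher at E15 and Slc1a2 was at least 2-fold lower. Over all 10193 genes with at least 5 CPM in either group, 25.3% were at least 2-fold higher and 20.3% at least 2-fold lower, so a difference of that size was common. Between transplanted and E15 cells, Apoe and Cst3 were at least 2-fold lower (11.8% of 10163 genes were) and Slc1a2 was at least 2-fold higher (4.71% were). Between transplanted and E12 cells, Aldh1l1 was at least 2-fold higher (22.9% of 9931 genes were) and no member was at least 2-fold lower (24.7% were). Each pair of these comparisons shares a group of cells, so they are not independent of each other.

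The counts were read again in other cells. In the remaining cells Aldh1l1 alone was at least 2-fold higher at E15 than at E12 (22.9% of all genes) and Slc1a2 lower (22.7%). Transplanted against E15 cells gave Slc1a2 higher (20% of all genes) and Apoe and Cst3 lower (30.3%), and transplanted against E12 cells gave Aldh1l1 higher (22%) and 0 members lower (31.4%). Without the libraries above 8000 genes alone, 3 members were higher at E15 than at E12 (24.2%) and 1 lower (21.6%). Transplanted against E15 cells then had 1 member higher (18.7%) and 1 lower (28%), and against E12 cells 2 members higher (22.5%) and 0 lower (29.8%). On mean CPM per cell, Apoe and Aldh1l1 were higher at E15 than at E12 (23.5%) and Slc1a2 lower (18.6%). Slc1a2 was then higher (12%) and Cst3 and Aldh1l1 lower (19.2%) in transplanted than in E15 cells, and 2 members were higher (21.4%) and 0 lower (23%) than in E12 cells.

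Cst3 encodes cystatin C, a secreted inhibitor of cysteine cathepsins. It was the most evenly read of the 4 genes, with reads in 20 of 20 E12, 26 of 26 E15 and 19 of 19 transplanted cells. E12 cells ranged from 4.87 to 1776 CPM with a median of 686 CPM. E15 cells ranged from 203 to 2795 CPM with a median of 934 CPM, and transplanted cells from 30.1 to 2406 CPM with a median of 439 CPM. The ranges of all 3 groups overlap, and the order of the medians is E15, then E12, then transplanted cells.

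In summed reads Cst3 was at 583 CPM at E12 (562 to 604), 1202 CPM at E15 (1191 to 1213) and 507 CPM in transplanted cells (495 to 520). E15 was 2.06 times E12 (1.99 to 2.14), a log2 ratio of 1.04, which 24.6% of all tested genes reached or passed. Leaving out 1 cell gave log2 ratios of 0.58 to 1.28, and those below 2-fold were 0.58 without E12 replicate 5, 0.92 without E12 replicate 19, 0.98 without E15 replicate 10 and 0.96 without E15 replicate 22. Of the 26 E15 cells 20 lay above the E12 median. If 1 cell of each group is drawn, the E15 cell had the higher Cst3 level in 74.0% of all pairs.

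Transplanted cells held 0.422 times the Cst3 level of E15 cells (0.411 to 0.433), a log2 ratio of -1.24, and 8.16% of all tested genes were at least as low. The ratio lay between -1.35 and -1.15 when any 1 cell was left out. Of the 19 transplanted cells 3 lay above the E15 median. Against E12 cells the log2 ratio was -0.20, and it lay between -0.66 and 0.03 over left-out cells, so the order of these neighbours is not separated from the spread between cells. In the remaining cells Cst3 was at 583 CPM at E12, 1067 CPM at E15 and 430.4 CPM in transplanted cells, which is the same order between E15 and the other groups.

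Each library carries the letter of 1 of 8 pools (A to H) in its label, and what a pool stands for is not stated. Cst3 was higher at E15 than at E12 in 8 of 8 pools, with log2 ratios from 0.61 in pool G to 2.15 in pool B, and the ratio over all cells was 0.74 without pool E. It was lower in transplanted than in E15 cells in 7 of the 7 pools that hold both, from -0.15 in pool G to -5.07 in pool E, where there is 1 transplanted cell. Transplanted cells were above E12 cells in 4 pools and below them in 3.

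**Figure D2:**
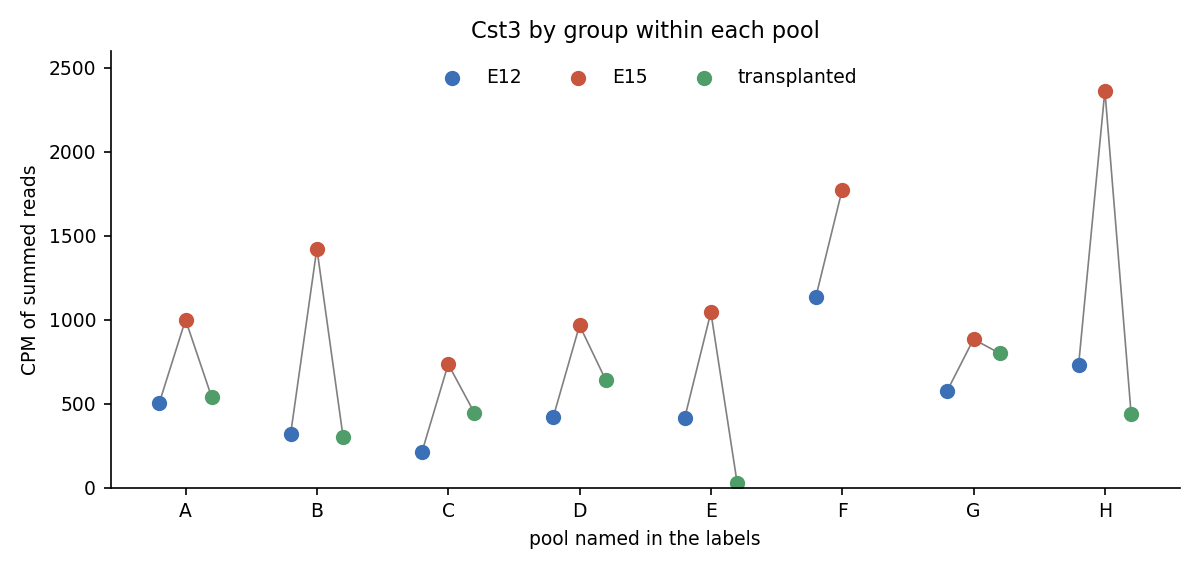
CPM of Cst3 from the summed reads of each group within each of the 8 pools; grey lines join the groups of a pool and pool F holds no transplanted cell. The E15 point is the highest in every pool.

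Apoe encodes apolipoprotein E, a secreted carrier of lipids between glia and neurons. It had reads in 14 of 20 E12 cells (70.0%, 45.7 to 88.1), 24 of 26 E15 cells (92.3%, 74.9 to 99.1) and 18 of 19 transplanted cells (94.7%, 74.0 to 99.9). E12 cells ranged from 0 to 1119 CPM with a median of 42.0 CPM, and E15 cells from 0 to 3125 CPM with a median of 581 CPM. Transplanted cells ranged from 0 to 16867 CPM with a median of 115 CPM. Transplanted replicate 8 alone is at the top of that range, and the next transplanted cell, replicate 18, was at 2360 CPM. E15 is highest by the median, and all 3 ranges overlap.

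The summed reads gave 190 CPM of Apoe at E12 (178 to 203), 1144 CPM at E15 (1133 to 1155) and 351 CPM in transplanted cells (340 to 361). E15 was 6.01 times E12 (5.63 to 6.42), a log2 ratio of 2.58, and 24 of the 26 E15 cells lay above the E12 median. In the remaining cells the levels were 190 and 343 CPM and the log2 ratio was 0.85. Within pools Apoe was higher at E15 in 7 of 8, the exception being pool A at 407 against 439 CPM.

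The direction between transplanted and E15 cells depended on how cells were weighed. The log2 ratio was -1.70 on summed reads (-2.46 without transplanted replicate 18), and 3 of 19 transplanted cells lay above the E15 median. Mean CPM per cell was 1172 in transplanted and 929 in E15 cells, a log2 ratio of 0.34, and without its highest cell the transplanted mean was 300.4 CPM. Without the libraries above 8000 genes alone the levels were 707 and 447 CPM, a log2 ratio of 0.66, and in the remaining cells they were 146 and 343 CPM, a log2 ratio of -1.22. Transplanted replicate 8, which has reads of 2316 genes, is below the first limit and above the second. Against E12 cells the transplanted log2 ratio was 0.88 (0.12 without transplanted replicate 18), and it was -0.38 in the remaining cells.

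The level of microglia genes was compared with that of Apoe across cells. The 15 genes of that list, among them the complement genes C1qa and C1qb, were all read in every group. Their summed level ranged from 0 to 563 CPM in E12 cells (median 37.7 CPM), 2.64 to 10655 in E15 cells (median 1045 CPM) and 0 to 25940 in transplanted cells (median 405 CPM), where replicate 8 is the highest. The Spearman correlation of Apoe with this sum was 0.64 over the 26 E15 cells, 0.84 over the 19 transplanted cells and 0.29 over the 20 E12 cells. It was 0.23 at E15 and 0.79 in transplanted cells once libraries above 8000 genes were left out. For Cst3 it was 0.39, 0.49 and 0.14 over all cells of E15, transplanted and E12, and 0.40 and 0.49 at E15 and in transplanted cells without those libraries. Both values of a cell come from 1 library and share its total. The part of these genes in the group differences of Apoe and Cst3 was not tested, and leaving out libraries did not level these genes. In the remaining cells 7 of 10 tested microglia genes were still at least 2-fold higher at E15 than at E12 (median log2 ratio 2.12). In transplanted than in E15 cells 7 of 13 were higher and 2 lower (1.14), and 12 of 12 were higher in transplanted than in E12 cells (2.77). Of all genes 22.9%, 20% and 22% were higher in these comparisons, and 30.3% were lower in transplanted than in E15 cells.

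**Figure D3:**
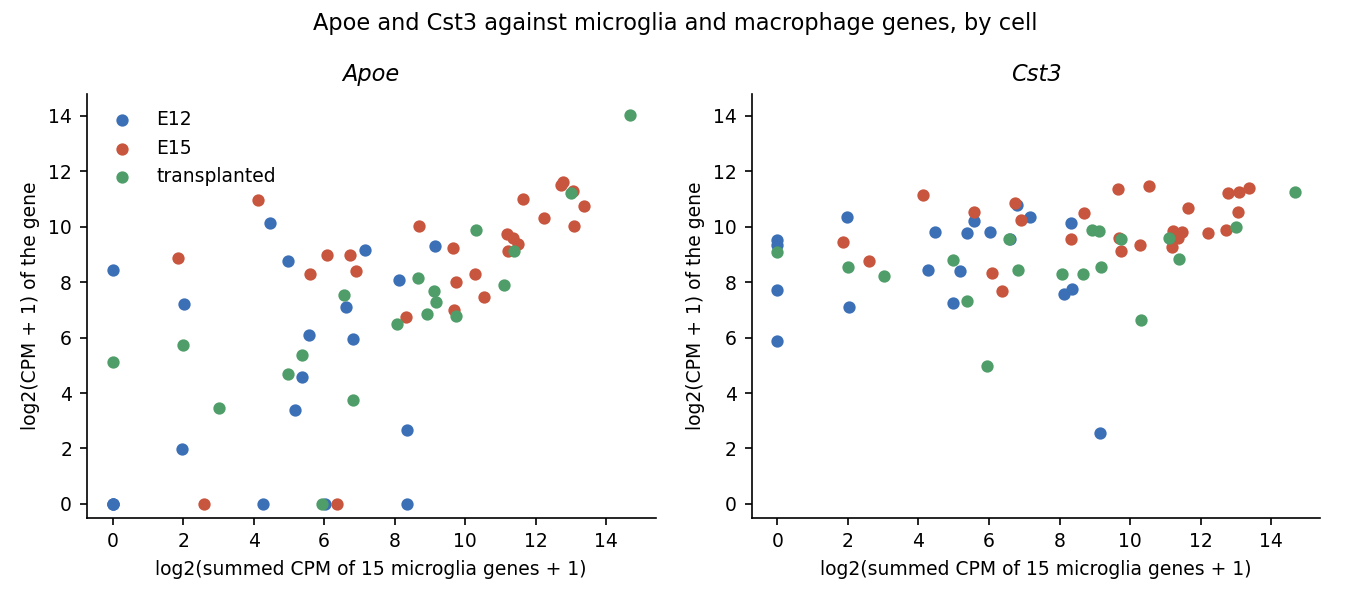
Log2(CPM + 1) of Apoe (left) and Cst3 (right) against log2 of 1 plus the summed CPM of 15 microglia and macrophage genes; each point is 1 of the 65 cells. The Spearman correlation in transplanted cells was 0.84 for Apoe and 0.49 for Cst3.

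Slc1a2 encodes the glutamate transporter GLT-1, which clears glutamate from the synapse and is a main transporter of mature astrocytes. It was read sparsely, with 116 reads in 10 of 20 E12 cells, 91 reads in 12 of 26 E15 cells and 257 reads in 10 of 19 transplanted cells. E12 cells ranged from 0 to 372 CPM (median 2.87 CPM), E15 cells from 0 to 162 CPM (median 0 CPM) and transplanted cells from 0 to 519 CPM (median 2.48 CPM). The groups overlap, and the medians lie at or near the level of a few reads.

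A few cells carried the Slc1a2 level. A level of at least 50 CPM, a limit chosen after the values had been seen, was found in 6 transplanted cells at 95.8 to 519 CPM, while the other transplanted cells were at 28.6 CPM or less. These 6 cells (replicates 1, 5, 8, 11, 16 and 18) came from 4 pools, none had reads of more than 8000 genes, and 3 of them were above 1000 CPM of microglia genes. Replicates 5 and 8 met the limit with 5 reads each, in libraries of 52192 and 39900 reads. At E12 the same limit was met by 2 cells, replicates 6 and 10, both of pool F. At E15 it was met by replicate 24 alone, where 4 reads in a library of 24673 made 162 CPM.

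In summed reads Slc1a2 was at 23.5 CPM at E12 (19.4 to 28.2), 2.43 CPM at E15 (1.96 to 2.98) and 20.2 CPM in transplanted cells (17.8 to 22.8). The log2 ratio of E15 over E12 was -2.84, and -1.52 without E12 replicate 6, which held 63.8% of the E12 reads, and -3.54 without E15 replicate 2. Only 1.89% of all tested genes were at least as low, but within pools Slc1a2 was higher at E15 in 4 and lower in 3, so the summed difference did not hold pool by pool. Without pool F it was -0.47.

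Transplanted cells held 8.32 times the Slc1a2 level of E15 cells (6.53 to 10.7), a log2 ratio of 2.63 that 0.246% of all tested genes reached or passed. It lay between 2.13 and 3.34 over left-out cells, the latter without E15 replicate 2, and Slc1a2 was higher in 6 of 7 pools. Without the 18 libraries above 1000 CPM of microglia genes the levels were 9.33 and 7.53 CPM, a log2 ratio of 0.28, and in the remaining cells they were 19.5 and 7.31 CPM, a log2 ratio of 1.30. The Spearman correlation of Slc1a2 with the microglia sum was 0.47 over the 19 transplanted cells and -0.25 over the 26 E15 cells, and its part in the difference was not tested. Against E12 cells the log2 ratio of Slc1a2 was -0.21, and 1.11 without E12 replicate 6. It was 0.88 on mean CPM per cell and -0.25 in the remaining cells. Within the 7 pools that hold both, Slc1a2 was higher in transplanted than in E12 cells in 5 and lower in 1.

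Aldh1l1 encodes a cytosolic 10-formyltetrahydrofolate dehydrogenase, an enzyme of folate metabolism that is widely used to mark astrocytes. It had 10 reads in 4 of 20 E12 cells, 1894 reads in 12 of 26 E15 cells and 603 reads in 7 of 19 transplanted cells. Cells ranged from 0 to 17.5 CPM at E12, 0 to 700 CPM at E15 and 0 to 224 CPM among transplanted cells, with a median of 0 CPM in each group. The groups overlap at 0 and differ in how many cells lie far above it.

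At or above 50 CPM were 7 E15 cells, 1 transplanted cell and 0 of 20 E12 cells. The 7 E15 cells, at 96.4 CPM or more, came from 6 pools, and the next E15 cell was at 24.6 CPM. They included replicate 8 at 700 CPM, replicate 13 at 474 CPM and replicate 21 at 437 CPM, the last from 5 reads. Of these 7 libraries 1 was above 8000 genes and 2 were above 1000 CPM of microglia genes. The transplanted cell is replicate 19, and the next transplanted cell, replicate 12, was at 34.4 CPM.

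The summed Aldh1l1 level was 2.02 CPM at E12 (0.970 to 3.72), 50.5 CPM at E15 (48.3 to 52.9) and 47.4 CPM in transplanted cells (43.7 to 51.4). E15 was 24.98 times E12 (13.6 to 52.2), a log2 ratio of 4.09 that 2.46% of all tested genes reached or passed. E15 replicate 13 held 73.6% of the E15 reads, and without it the level was 14.5 CPM and the log2 ratio 2.36. Without E12 replicate 9, which held 6 of the 10 E12 reads, it was 4.78. Aldh1l1 was higher at E15 in 7 of 8 pools, and pool B had no read in either group. In the remaining cells the levels were 189 against 2.02 CPM.

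For transplanted cells the summed Aldh1l1 level is that of 1 cell. Replicate 19 held 579 of the 603 reads, 96.0%, and without it the level was 2.37 CPM, near that of E12 cells. The log2 ratio to E15 was -0.09 with all cells, -3.94 without transplanted replicate 19 and 1.65 without E15 replicate 13. The log2 ratio to E12 was 4.0 with all cells and 0.16 without transplanted replicate 19 (4.69 without E12 replicate 9). Mean CPM per cell was 14.6 in transplanted and 84.1 in E15 cells, a log2 ratio of -2.44.

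**Figure D4:**
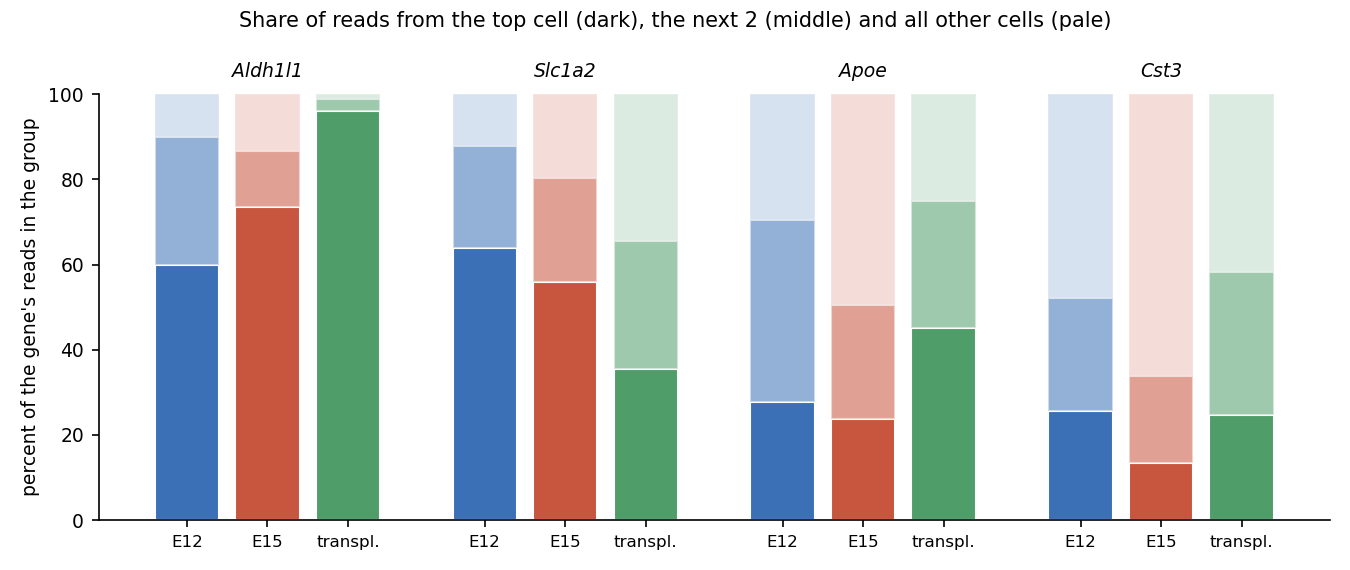
Percent of each gene's reads in a group that came from the cell with most of them (dark), from the next 2 cells (middle) and from all other cells (pale). The top cell held 96.0% of the transplanted Aldh1l1 reads and 13.4% of the E15 Cst3 reads.

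Since depth differed, the shares of cells with a read were also taken at equal depth. With each cell thinned to 20000 reads, leaving out 2 E12 cells and 1 E15 cell with fewer, Aldh1l1 had a read in 1 of 18 E12 cells (5.6%, 0.1 to 27.3), 7 of 25 E15 cells (28%, 12.1 to 49.4) and 1 of 19 transplanted cells (5.3%, 0.1 to 26). These intervals overlap. Slc1a2 had a read in 4 of 18 E12, 2 of 25 E15 and 6 of 19 transplanted cells at that depth. Apoe had one in 11 of 18, 22 of 25 and 14 of 19 cells, and Cst3 in 17 of 18, 25 of 25 and 19 of 19.

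**Figure D5:**
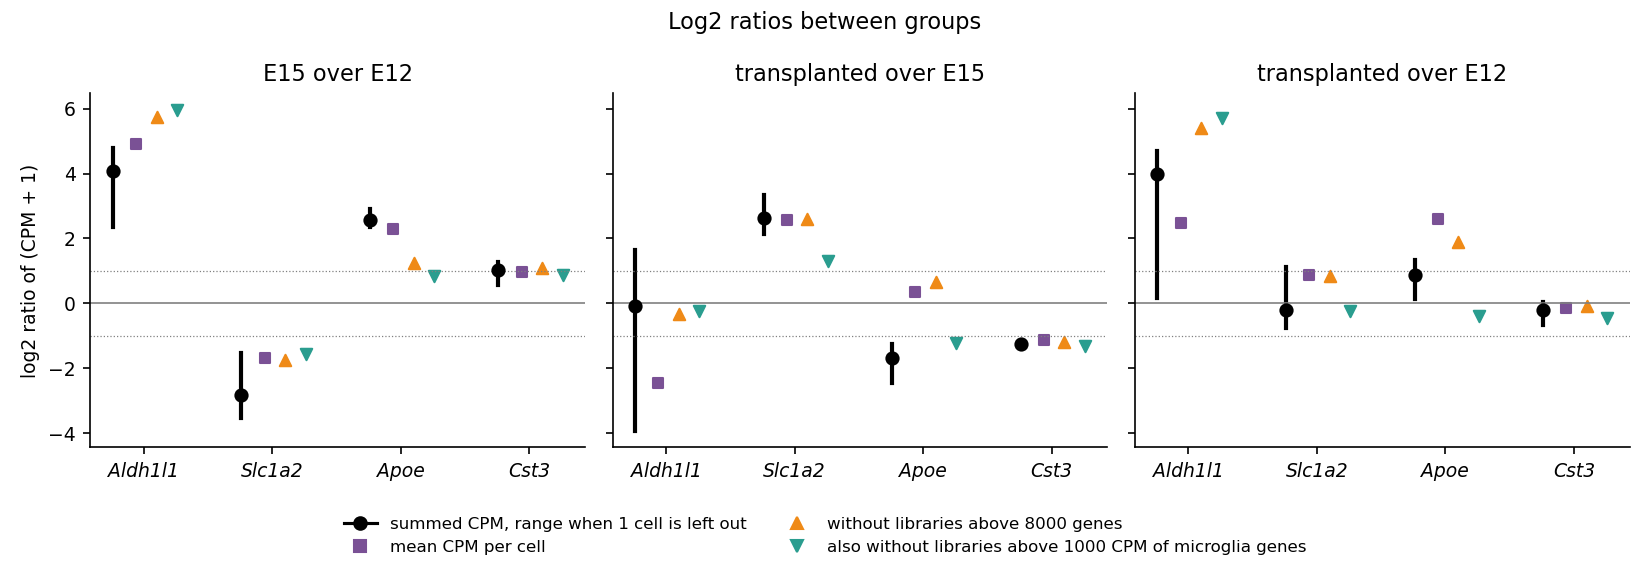
Log2 ratios of the 4 genes in the 3 comparisons; black points are summed CPM of all cells with a bar over the values found when 1 cell is left out, and coloured marks are mean CPM per cell, summed CPM without libraries above 8000 genes, and summed CPM of the remaining cells. For transplanted over E15 cells the Cst3 values lie between -1.35 and -1.13, while those of Apoe run from -2.46 to 0.66.

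The deposited values themselves are log10 residuals with 0 at the mean of a gene over all 65 cells. Cst3 had a mean deposited value of -0.13 at E12, 0.22 at E15 and -0.17 in transplanted cells, with SDs over cells of 0.53, 0.30 and 0.38. For Apoe the means were -0.24, 0.32 and -0.18 with SDs of 0.63, 0.65 and 0.63. Those of Aldh1l1 were -0.23, 0.22 and -0.06 with SDs of 0.14, 0.59 and 0.33. The E15 mean was thus the highest for these 3 genes. Slc1a2 went the other way, with means of -0.03, -0.11 and 0.18 and SDs of 0.43, 0.28 and 0.37. The difference between transplanted and E15 cells for Cst3, -0.39, was just past the larger of its SDs (0.38), and every other difference between the means of 2 groups was smaller than the larger SD of the pair.

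The 4 genes did not vary together across cells in a common way. The Spearman correlation of Apoe with Cst3 was 0.50 over the 26 E15 and 0.52 over the 19 transplanted cells, and 0.00 over the 20 E12 cells. That of Slc1a2 with Cst3 was -0.50 over E15 cells, 0.36 over E12 cells and 0.10 over transplanted cells. Aldh1l1 and Slc1a2 were read in the same cell 8 times at E15, where 4 cells had Aldh1l1 alone, 4 had Slc1a2 alone and 10 had neither. The correlation of Aldh1l1 with the summed apical progenitor genes was 0.55 at E15, 0.05 at E12 and 0.08 in transplanted cells, and with the summed neuronal genes it was -0.38, 0.08 and 0.26. For Apoe and the apical progenitor genes it was -0.52 at E15, -0.24 at E12 and -0.18 in transplanted cells, and 0.04 at E15 without the libraries above 8000 genes. For Apoe and the neuronal genes it was 0.44, 0.31 and -0.23, and 0.08 at E15 without those libraries. These are descriptions over cells that each share 1 library and its depth.

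The genes most like each member were ranked by the Spearman correlation of CPM across the cells of a group, averaged over the 3 groups, among 6498 genes with a read in at least 5 cells of each. For Apoe they were Fcer1g at 0.65, Tyrobp at 0.63 and C1qb at 0.62. Fcer1g and Tyrobp are signalling adaptors of myeloid cells and C1qb is a complement subunit, and all 3 are among the microglia and macrophage genes above. For Cst3 they were the lysosomal protease Lgmn at 0.46, B2m, the light chain of MHC class I, at 0.44, and the tetraspanin Cd63 at 0.41. For Aldh1l1 they were Myo9a, a myosin, at 0.47, Emid1 at 0.45 and Npas3, a transcription factor, at 0.44, and for Slc1a2 Chpt1, of choline phospholipid synthesis, at 0.39, Miat at 0.38 and Gm42636 at 0.37. The last 2 sets rest on sparse counts.

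Other astrocyte genes split in direction. Of 33 listed, 24 were measured, and the markers Aqp4, Gfap and S100b were not analysed here. At E15 against E12, 7 of 24 were at least 2-fold higher and 9 lower, beside 25.3% and 20.3% of all genes. The median log2 ratio was -0.56, against -0.03 over all genes. In the remaining cells 10 were higher and 2 lower, beside 22.9% and 22.7% of all genes (median 0.56, against -0.02). Glul, glutamine synthetase, was at 79.6 against 16.2 CPM and Mlc1, a membrane protein of astrocyte endfeet, at 33.0 against 7.49 CPM. The gap junction gene Gja1 had 1.41 CPM at E15 and 43.7 CPM at E12. In transplanted against E15 cells 10 of 23 were lower and 3 higher, beside 11.8% and 4.71% of all genes (median -0.71, against -0.08 over all genes). In the remaining cells 15 of 24 were lower and 3 higher, beside 30.3% and 20% of all genes (median -1.47, against -0.18). The lower ones included the secreted proteins Mfge8, at 59.0 against 317 CPM, Clu, at 33.5 against 168 CPM, and Sparc, at 81.6 against 300 CPM. The log2 ratio of Clu was -2.29 on summed reads and -0.79 on mean CPM per cell. Against E12 cells 12 of 24 were lower and 4 higher in transplanted cells, beside 24.7% and 22.9% of all genes. The median was -1.02 (0.13 in the remaining cells). In the remaining cells 7 of 23 were lower and 5 higher, beside 31.4% and 22% of all genes. Aldoc, a glycolytic aldolase, was at 116 against 708 CPM, Fgfr3 at 13.5 against 84.8 CPM and Gpc4, a glypican, at 12.3 against 64.5 CPM. Their log2 ratios in the remaining cells were -0.94, under 2-fold, for Aldoc, -1.21 for Fgfr3 and -2.84 for Gpc4.

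Beside Slc1a2, 11 genes of glutamate transport and metabolism were measured. Of these Slc1a3 and Glul are also in the astrocyte list, and Slc1a3 is in the apical progenitor list too. Some lists thus share genes, and their counts are not independent of each other. At E15 against E12, 3 were higher and 3 lower (25.3% and 20.3% of all genes were). In the remaining cells 4 were higher and 1 lower (22.9% and 22.7%). Got1, an aspartate aminotransferase, had 73.7 CPM at E15 and 24.3 CPM at E12 (log2 ratio 1.56), and was under 2-fold without libraries above 8000 genes (0.70), in the remaining cells (0.71) and on mean CPM per cell (0.82). Slc1a3, the glutamate transporter GLAST of radial glia, was at 52.1 CPM in transplanted against 158 CPM in E15 cells, and at 146 against 577 CPM in the remaining cells. Its direction was thus opposite to that of Slc1a2 in this comparison. Of the 11 genes 2 were at least 2-fold lower there and 0 higher (median -0.35), beside 11.8% and 4.71% of all genes. Without the libraries above 8000 genes 6 were lower and 0 higher (median -1.01), beside 28% and 18.7% of all genes. In the remaining cells 5 were lower and 2 higher (median -0.94), beside 30.3% and 20%. Against E12 cells 2 of 10 were higher and 5 lower (median -1.03), beside 22.9% and 24.7% of all genes. Slc1a4, a neutral amino acid transporter, was at 11.95 against 40.9 CPM.

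Around Aldh1l1, 20 genes of folate and one-carbon metabolism were measured. At E15 against E12, 5 were higher and 6 lower (median -0.49), beside 25.3% and 20.3% of all genes. Of 18 tested in the remaining cells 3 were higher and 2 lower (median -0.22), beside 22.9% and 22.7%. Tyms, thymidylate synthase, had 213 CPM at E15 and 577 CPM at E12 (log2 ratio -1.44), and a log2 ratio of -0.77 in the remaining cells. In transplanted against E15 cells 1 was higher and 1 lower (median -0.08), beside 4.71% and 11.8% of all genes. In the remaining cells 4 were higher and 4 lower, beside 20% and 30.3%. Mthfd2l, of the mitochondrial folate pathway, did not reach 2-fold at a log2 ratio of 0.69 (1.75 on mean CPM per cell). Against E12 cells 2 of 18 were higher and 5 lower (median -0.55), beside 22.9% and 24.7% of all genes. Gart, of purine synthesis, was at 26.3 against 72.0 CPM.

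Beside Apoe, 16 genes of apolipoproteins and lipid transport were measured, of which Clu is also in the astrocyte list. At E15 against E12, 8 were higher and 2 lower, beside 25.3% and 20.3% of all genes (median 1.03, and 0.42 in the remaining cells). Apoc1, an apolipoprotein gene next to Apoe on chromosome 7, was at 66.0 CPM at E15, from 16 of 26 cells, and at 0.607 CPM at E12, from 3 of 20 cells. In the remaining E15 cells it was at 3.33 CPM. In transplanted against E15 cells 5 of 16 were lower and 0 higher (median -0.84), beside 11.8% and 4.71% of all genes. In the remaining cells 11 of 13 were lower (median -1.93), beside 30.3% of all genes. Abca1, which loads lipid onto apolipoproteins, had 9.75 CPM in transplanted and 44.0 CPM in E15 cells, and in the remaining cells 0.542 and 66.0 CPM. Against E12 cells 3 of 14 were higher and 4 lower (median -0.20), beside 22.9% and 24.7% of all genes.

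Beside Cst3, 12 genes of a cystatin and cathepsin list were measured, which also holds the lysosomal protease Lgmn named above as most like Cst3. At E15 against E12, 10 were higher and 0 lower (median 2.19), beside 25.3% and 20.3% of all genes. In the remaining cells 6 were higher and 0 lower (median 0.86), beside 22.9% and 22.7% of all genes. Ctss, a cathepsin of microglia that is also in the microglia list, was at 360 against 7.08 CPM and at 6.24 against 7.08 CPM in the remaining cells. Ctsc, a cathepsin that activates other proteases, was at 254 against 10.1 CPM (35.4 in the remaining E15 cells). In transplanted against E15 cells 5 of 12 were lower and 0 higher, beside 11.8% and 4.71% of all genes. The median was -0.72 (-0.66 in the remaining cells), and Ctso was at 2.75 against 26.8 CPM. Without the libraries above 8000 genes alone 5 were higher and 1 lower (median 0.45), beside 18.7% and 28% of all genes. Ctsh was at 5.27 against 41.5 CPM in summed reads, a log2 ratio of -2.76, and at a log2 ratio of 0.17 on mean CPM per cell. Against E12 cells 7 of 11 were higher and 0 lower, beside 22.9% and 24.7% of all genes. The median was 1.38 (0.57 in the remaining cells), and Ctsf was at 26.2 against 0.809 CPM. Cst3 itself had a log2 ratio of -0.20 in this comparison.

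Other cell types' markers also differed in level, and their part in the results above was not tested beyond the values in the remaining cells. Of all genes 25.3% were at least 2-fold higher and 20.3% lower at E15 than at E12. These shares were 24.2% and 21.6% without libraries above 8000 genes, and 22.9% and 22.7% in the remaining cells. In transplanted against E15 cells 4.71% were higher and 11.8% lower, and in the same sets of cells 18.7% and 28%, and 20% and 30.3%. All 15 microglia genes were at least 2-fold higher at E15 than at E12 (3710 against 90.2 CPM in sum), and 13 of 15 were lower in transplanted than in E15 cells (1308 CPM), while 8 were higher and 4 lower without the libraries above 8000 genes. The 9 measured ventral telencephalon genes were all higher at E15 than at E12 (2200.4 against 213 CPM), and 0 of 9 passed the limit between transplanted and E15 cells. Without the libraries above 8000 genes 3 of 7 were higher and 1 lower at E15 than at E12, and 6 of 9 were higher and 2 lower in transplanted than in E15 cells (4 higher and 2 lower in the remaining cells). Of 9 neuronal genes 4 were higher at E15 than at E12 (2 higher and 1 lower in the remaining cells), and 0 of 9 passed the limit between transplanted and E15 cells (2 higher and 1 lower). The 6 intermediate progenitor genes had 1 higher and 1 lower at E15 than at E12, and 0 higher and 1 lower in transplanted than in E15 cells (in the remaining cells 3 and 0, and 0 and 4). The 4 erythroid genes were all at least 2-fold higher in transplanted than in E15 cells (8185 against 1411 CPM), but for Hba-a1, an alpha globin gene, leaving out 1 cell took the log2 ratio from 2.68 to 0.10. The endothelial, oligodendrocyte and choroid plexus lists had 1 measured gene each: Egfl7 at 18.4, 2.99 and 2.75 CPM in E12, E15 and transplanted cells, Olig2 at 2.23, 11.05 and 12.3 CPM and Ttr at 120, 13.6 and 18.7 CPM. No pericyte gene of the list was analysed here.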

How the data were processed

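The submitters' processing notes name STAR, HTSeq and the mm10 build; versions and strand setting are not given in the sources used here. Libraries were made with the SMART-Seq v4 3′ DE kit and Nextera XT, per the labels. The deposited values are log10 residuals: log10 of 1 plus reads scaled to 100000 per library, centred by gene, with 2 further directions over cells removed. This was found from the values. The removed part was added back from the cells at 0 (10034 genes) or by a search for whole numbers (373 genes). The 356667 values above 0 were whole to within 0.01 reads, but being whole was also the rule for accepting a solution. Of the 373 genes found by the search 0 were ambiguous, and other solutions were not looked for in the 10034 genes. Simulated data returned 100.0% of 1200 genes. The library totals implied by the scale were whole in 65 of 65 cells, and the tables held 94.0 to 99.3% of them. No gene of the tables was read in fewer than 6 cells.

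The design had foreseen read counts, and all CPM values come from these recovered counts. Members, lists, limits and alternatives were chosen with earlier results of these data known. Members were always named. Other genes were named by rule: up to 3 per list and comparison with the largest log2 ratio, at 20 CPM and in 25% of cells of the higher group, with 1 sign over left-out cells. Not all of these are printed. Sox2 and Hes5 (examples of a list) and Egfl7 and Olig2 (each the sole measured gene of a list) are named outside it, after their values were seen, as are the genes most like a member, named by rank. Mtr, Abca7 and Gsx2, the listed genes at 0 in E12 cells, are not printed as ratios. Computation used pandas 2.3.3 and SciPy 1.17.1 under Python 3.11.15, with NumPy 2.4.6; Numba 0.67.0 sped up the search and Matplotlib 3.10.9 drew the plots.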

Additional observations from a re-analysis of the deposited data

How the results depend on the processing

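Each log2 ratio was recomputed in 12 other ways and with each cell or pool left out. Cst3 kept its direction in all 12 for each comparison, from 0.77 to 1.30 for E15 over E12 and from -1.73 to -1.08 for transplanted over E15 cells. Aldh1l1 stayed at least 2-fold higher at E15 than at E12 in all 12 (2.98 to 5.97), and Slc1a2 at least 2-fold lower (-3.22 to -1.08). Apoe in transplanted over E15 cells turned to 0.34 on mean CPM per cell, 0.08 on counts thinned to 20000 reads and 0.66 without libraries above 8000 genes.

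The number of members at least 2-fold higher at E15 than at E12 was 3, and 1 both without libraries above 1000 CPM of microglia genes and without either kind of library. E15 over E12 had 1 lower, and 0 to 1 with cells or pools left out. Transplanted over E15 cells had 1 higher, 0 without libraries above 1000 CPM of microglia genes and 1 to 2 with cells or pools left out, and 2 lower, 1 without libraries above 8000 genes and 3 without libraries above 1000 CPM of microglia genes, without pool A, without transplanted replicate 19 and when ratios are averaged over pools. Transplanted over E12 cells had 1 higher, 2 on mean CPM, on thinned counts and without libraries above 8000 genes, 3 when ratios are averaged over pools, and 0 to 3 with cells or pools left out. None was lower, 2 were without libraries above 1000 CPM of microglia genes, and 0 to 1 were with cells or pools left out. The share of all genes past the limit also moved with the cells used. In transplanted over E15 cells it was 4.71% higher and 11.8% lower, 18.7% and 28% without libraries above 8000 genes, and 20% and 30.3% in the remaining cells. No such share is given here for left-out cells or pools or for the microglia limit alone, so those counts are not read as results about the members. The microglia limit and the authors' library totals were chosen after seeing the data. Ratios within pools rest on 1 to 5 cells a group and use the pseudocount where a group had no read. No paired analysis was possible because replicate numbers only follow accession order; the comparison within pools stands in the report. Slc1a2 and Aldh1l1 have medians at the level of a few reads or 0, and E15 replicates 4, 5 and 7, among the deepest, had no read of either.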
